A study of Mus musculus with 16 samples.

Results

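The genes described here encode the presynaptic machinery that stores glutamate in synaptic vesicles and releases it, together with a pair of receptors that restrain release. The set was a list of 34 gene symbols, and 33 of them were found by symbol among the 19505 genes measured on Clariom S arrays. Syt5 was the symbol not found. The list names synapsins, vesicle membrane proteins, synaptotagmins, fusion proteins of the SNARE family with their complexins, glutamate transporters, active zone and priming proteins, the vesicle recycling protein Snap91, and the receptors Gabbr1 and Drd2.

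All samples came from S100a5-tauGFP mice, which carry a green fluorescent protein (GFP) reporter under the control of S100a5. That gene encodes a calcium-binding protein, and in olfactory sensory neurons it is switched on by activity. The labels do not say whether the reporter is a knock-in or a transgene, or how many copies the mice carried. The Kentucky assay uses such mice to find odorant receptors of neurons that responded to an odor. In all, 24 mice of both sexes, aged 7 to 12 weeks, spent 40 h in single clean-air chambers at an air flow of 3.1 L/min. From 26 h on they received 10 s pulses every 20 min, of indole/ionone in the odor arm or of filtered air in the vehicle arm. Neither the ionone isomer, the dose nor whether the odorants were mixed is given in the sources used here. Olfactory mucosa of 3 mice per pool was dissociated and sorted by fluorescence into GFP+ and GFP- cells. This gave 4 groups of 4 samples, odor GFP+, odor GFP-, vehicle GFP+ and vehicle GFP-, from 8 pools. A GFP- sample holds every cell without reporter signal, so it contains sensory neurons as well as other mucosal cells.

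Olfactory sensory neurons send an axon to the olfactory bulb and release glutamate there onto mitral, tufted and periglomerular cells. Their vesicles are loaded by the glutamate transporter VGLUT2, the product of Slc17a6, and fuse when calcium binds synaptotagmins on vesicles held by SNARE complexes. GABA and dopamine from bulbar interneurons lower the release probability through GABA-B and D2 receptors on the same terminals.

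Promoter windows from RefSeq (build GRCm38.p6, 250 bases before to 50 after each transcription start) were at hand for 27 of the 34 listed genes. Rims2, Snap25, Syn3, Syt4, Syt5, Syt7 and Vamp2 had no window and were not searched. Sequences are shown for Syn1, which had the largest difference between fractions among the genes above background, and for Unc13a. Unc13a is included because both windows held parts of the RE1 element, the site of the neuronal repressor REST. Searches covered both strands. The cyclic AMP response element TGACGTCA was found in 1 of the 27 genes, Syn1, against 2.03% of the 27025 genes with a window. The left part of RE1, TTCAGCACC, was found in 2 of the 27, Syn1 and Unc13a, against 0.433% of all genes. The right part, GGACAGCGC, was found in 1, Unc13a, against 0.477%. The palindromic site of the EBF factors of sensory neurons was found in 0 of the 27 and in 1.06% of all genes. The letters below are written 5′ to 3′ on the gene's strand, with the matches in capitals. The Syn1 window is the 250 bases before the start (chrX:20920919-20921168, minus strand), with the left RE1 part at -232 to -224 and the response element at -159 to -152. The Unc13a stretch lies just after its start (chr8:71671727-71671752, minus strand), with the reverse complement of the right part at 6 to 14 and that of the left part at 23 to 31. Such a match describes letters in a window and shows no binding.
Syn1: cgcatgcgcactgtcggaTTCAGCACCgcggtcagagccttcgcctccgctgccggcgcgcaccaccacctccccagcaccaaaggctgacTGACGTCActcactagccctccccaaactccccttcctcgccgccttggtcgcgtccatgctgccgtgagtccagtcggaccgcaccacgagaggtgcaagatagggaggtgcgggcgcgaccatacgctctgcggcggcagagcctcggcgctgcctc
Unc13a: GCGCTGTCCgcgcccccGGTGCTGAA

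Background was read from 23 antigenomic probes on each array, whose median log2 level was between 5.76 and 6.01 on GFP+ arrays and between 5.63 and 6.05 on GFP- arrays. Of the 33 genes, 28 lay above the background of every one of the 16 arrays. Synpr, Syt2, Cplx1 and Slc17a7 lay under it on all 16, and Erc2, an active zone scaffold, was above it on 8. No fold is given for these. S100a5 was higher in GFP+ samples by 1.29 ± 0.12 (log2 difference and SE over 8 pools). Every SE given here is that of limma, in which the variance of a gene is moderated by those of all genes. Mature sensory neuron markers were present in both fractions, although 1 of the 14, Cngb1, lay under background in every group. In the pools numbered 3 of both arms, Y-linked genes lay at log2 levels of 2.76 to 4.09, against 6.42 to 12.09 in the other pools. Without these pools the count of release genes differing between fractions, given next, was again 16. The genes were not all the same, as Stx1a lost its call.

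In the deposited values, many release genes had higher levels in GFP+ samples than in GFP- samples of the same pool. Over both arms, 15 of 33 genes were higher in GFP+ samples by limma with Benjamini-Hochberg adjustment over all genes, and 1 was lower. The background of this comparison was 18.3% of all 19505 genes higher and 13.9% lower. Counts over both arms for each class of release genes below stand against the same shares. Of the 15, Cplx1 was under background, as was the single gene called lower, Slc17a7, so 14 of the 28 genes above background on every array were called, all higher. Among all 9681 genes above background on every array, 25.7% were higher and 9.6% lower. The median difference was 0.25 over the 33 genes and 0.12 over all genes, both as GFP+ minus GFP- on the log2 scale. GFP+ exceeded GFP- in 8 of 8 pools for 10 genes, namely Syn1, Syn2, Syp, Sv2b, Syt1, Syt4, Snap25, Cplx2, Rab3a and Drd2. The share of all genes higher in every pool was not counted, so this count has no background beside it. For 6 of these 10 genes, Syn1, Syn2, Syp, Sv2b, Syt4 and Snap25, the 8 GFP+ levels did not overlap the 8 GFP- levels, where 3.52% of all genes were higher and 7.76% lower without overlap. The count of 16 genes called fell to 9 without odor replicate 4, vehicle replicate 1 or vehicle replicate 2, and to 10 without odor replicate 1 or vehicle replicate 4. Fewer cells of a type and less RNA per cell cannot be told apart in these bulk samples.

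**Figure D1:**
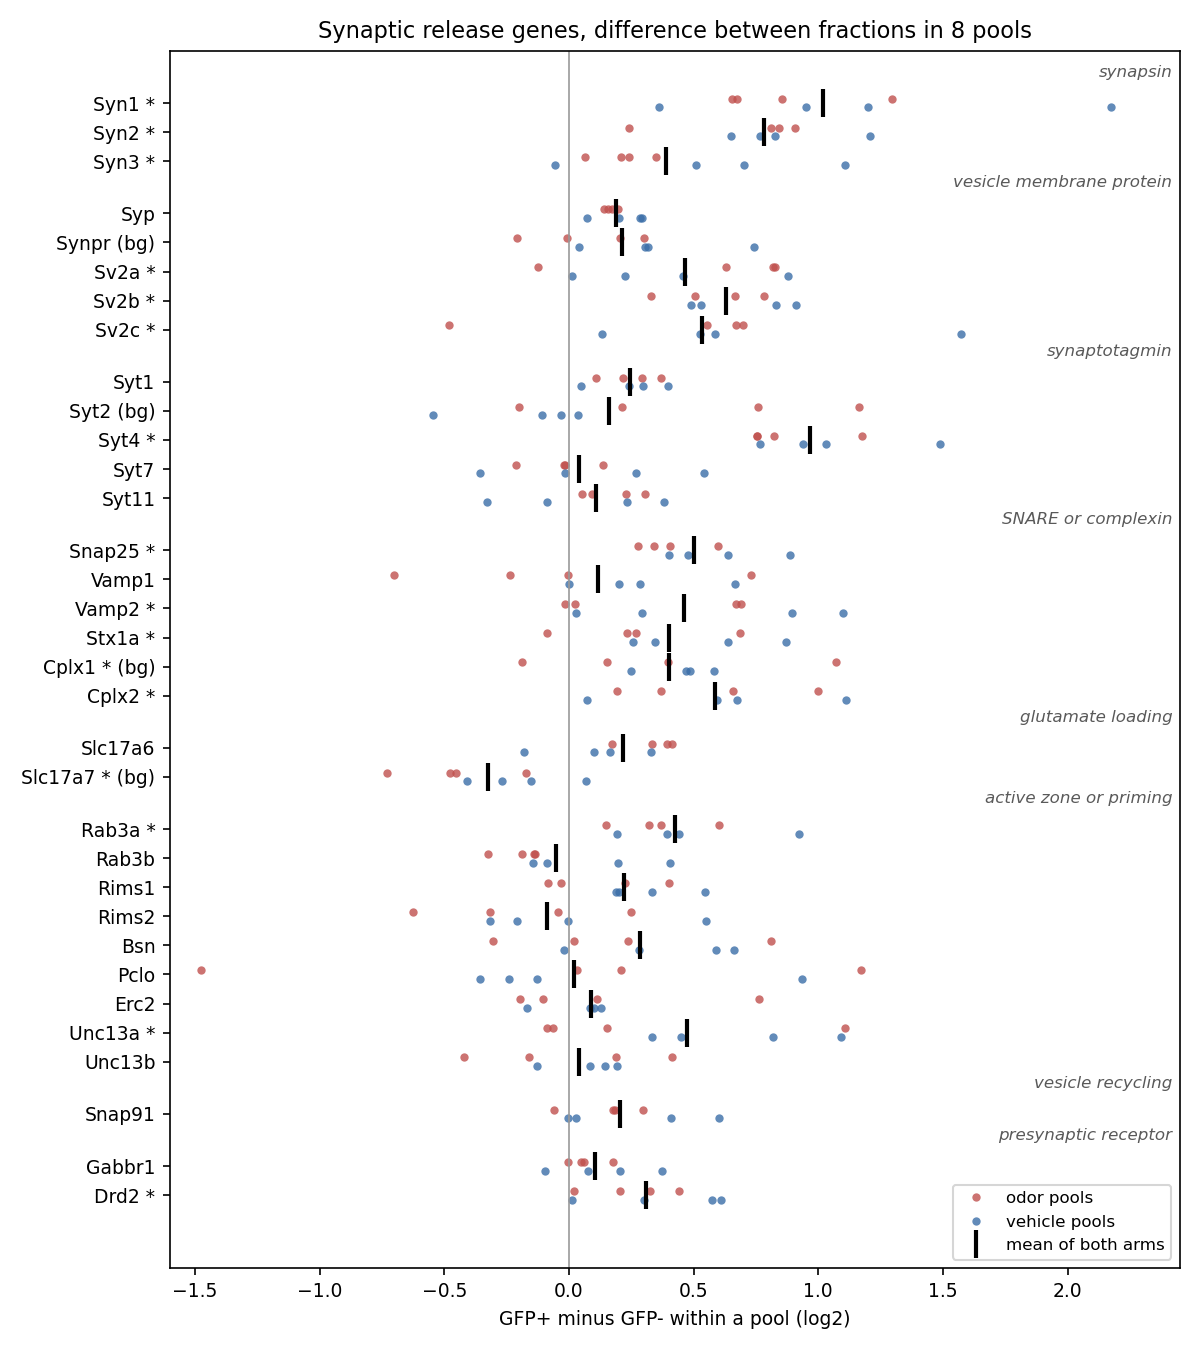
GFP+ minus GFP- log2 difference of each of the 33 genes, with 1 point per pool (red, odor; blue, vehicle) and a black bar at the mean of both arms; * marks genes called over both arms and (bg) genes under background on all 16 arrays. Syn1, Syt4, Syn2 and Sv2b lie right of 0 in 8 of 8 pools, whereas the active zone genes Rims2, Pclo and Unc13b have pools on both sides of 0.

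The difference varied between pools. Over the 28 genes above background, its median was 0.21, 0.22, 0.19 and 0.28 in odor replicates 1 to 4 and 0.74, 0.45, 0.10 and 0.26 in vehicle replicates 1 to 4. Vehicle replicate 1 thus stood highest, and it gave the largest difference of any pool for 20 of the 28 genes. Vehicle replicate 3 and odor replicate 3 each gave the smallest difference for 7 genes.

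Synapsins are phosphoproteins that tether vesicles to one another and to the cytoskeleton in the reserve pool, and 3 of 3 of their genes were higher in GFP+ samples. Syn1 lay between 11.07 and 11.64 (log2 level) in GFP+ samples, with a median of 11.40, and between 9.21 and 10.77 in GFP- samples, with a median of 10.53. Its within-pool difference was 0.65, 0.68, 0.85 and 1.30 in odor replicates 1 to 4 and 2.17, 1.20, 0.36 and 0.95 in vehicle replicates 1 to 4. Every pool was above 0 and the fractions did not overlap, and the pool at 2.17 was the one with the lowest GFP- level, 9.21. The mean difference was 1.02 ± 0.17 (SE, n = 8 pools), or 2.03-fold, with an adjusted p of 7.49e-04 by limma.

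Syn2 had GFP+ levels from 14.01 to 14.39 (median 14.30) and GFP- levels from 13.18 to 13.77 (median 13.49). Its differences were 0.81, 0.91, 0.24 and 0.84 in the odor pools and 1.21, 0.83, 0.65 and 0.77 in the vehicle pools. Only odor replicate 3 stood away from the others, and the mean was 0.78 ± 0.11 or 1.72-fold (limma adjusted p = 1.81e-04). Syn3 showed a smaller and less even difference, 0.24, 0.21, 0.06 and 0.35 in odor pools and 1.11, 0.51, -0.06 and 0.70 in vehicle pools. Its fractions overlapped, with GFP+ levels of 12.34 to 12.92 (median 12.63) and GFP- levels of 11.82 to 12.47 (median 12.30). The mean of 0.39 ± 0.12 passed the test (limma adjusted p = 0.0309) but did not without odor replicate 1, 2 or 4 or vehicle replicate 1, 2 or 4 (adjusted p from 0.0595 to 0.0749).

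**Figure D2:**
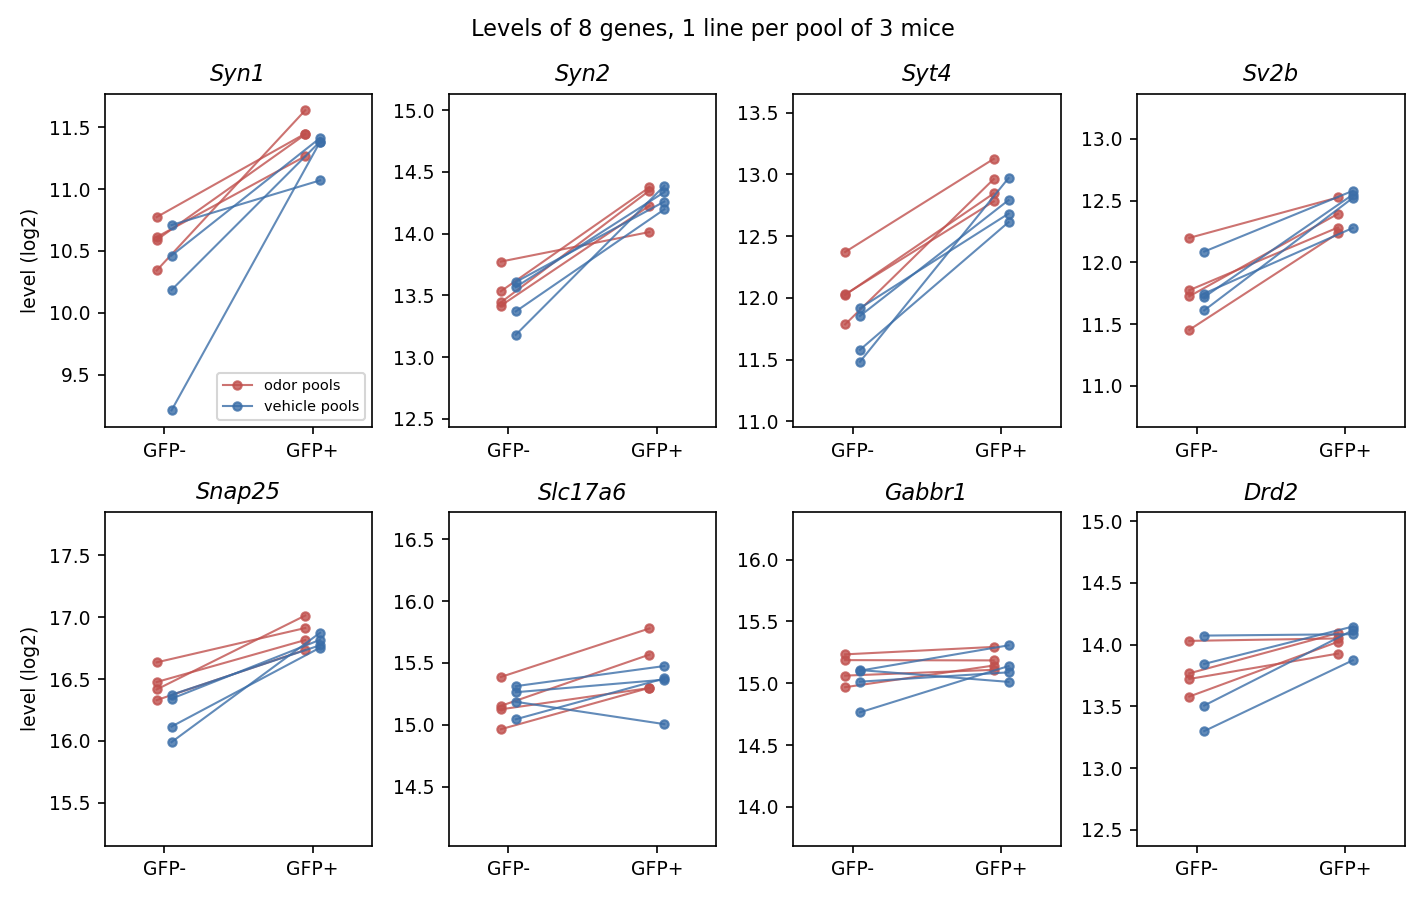
Log2 level in the GFP- and GFP+ sample of each pool for 8 genes, with 1 line per pool (red, odor; blue, vehicle); each panel has its own level range of equal height. All lines rise for Syn1, Syn2, Syt4, Sv2b and Snap25, while those of Slc17a6 and Gabbr1 are nearly flat, with a mean difference of 0.22 and 0.10.

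Among the genes of 5 vesicle membrane proteins, those of the 3 SV2 glycoproteins were higher in GFP+ samples. SV2 proteins sit in the vesicle membrane and bind synaptotagmin. Sv2b lay at 12.23 to 12.58 (median 12.46) in GFP+ and 11.45 to 12.20 (median 11.74) in GFP- samples, without overlap. Its difference was 0.78, 0.67, 0.51 and 0.33 in odor pools and 0.91, 0.83, 0.49 and 0.53 in vehicle pools. With a mean of 0.63 ± 0.10 or 1.55-fold (limma adjusted p = 4.01e-04), it was the steadiest of the family across pools.

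Sv2a differed by 0.83, 0.82, -0.13 and 0.63 in odor pools and by 0.88, 0.46, 0.22 and 0.01 in vehicle pools. Its levels overlapped, from 10.37 to 11.28 (median 10.74) in GFP+ and from 9.90 to 10.85 (median 10.41) in GFP- samples. The mean was 0.47 ± 0.13 (limma adjusted p = 0.0216), and the call ended without odor replicate 1, 2 or 4 or vehicle replicate 1 or 2 (adjusted p from 0.0519 to 0.0606). Sv2c was the most uneven, at 0.67, 0.55, -0.48 and 0.70 in odor pools and 1.57, 0.52, 0.13 and 0.58 in vehicle pools. GFP+ levels of 10.71 to 11.56 (median 11.07) overlapped GFP- levels of 9.99 to 11.24 (median 10.54). Its mean of 0.53 ± 0.17 (limma adjusted p = 0.0368) was not called without odor replicate 1, 2 or 4 or vehicle replicate 1, 2 or 4 (adjusted p from 0.0592 to 0.0924).

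Synaptophysin, the product of Syp and an abundant vesicle protein often used as a synaptic marker, showed a small difference in every pool. It was 0.20, 0.17, 0.14 and 0.16 in odor pools and 0.28, 0.29, 0.20 and 0.07 in vehicle pools. GFP+ levels of 17.55 to 17.67 (median 17.60) did not overlap GFP- levels of 17.27 to 17.51 (median 17.45). The mean, 0.19 ± 0.08, did not pass the test over all genes (limma adjusted p = 0.103). Its moderated SE of 0.083 was larger than the SD of its own pool differences, 0.073, so the miss does not reflect uneven pools. Synpr, which encodes a relative of synaptophysin, was under background.

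Of 5 synaptotagmins, 1 was called. It was Syt4, which encodes an isoform with an altered calcium-binding domain that is known to be induced by neuronal activity. Its log2 level ran from 12.61 to 13.12 (median 12.82) in GFP+ samples and from 11.48 to 12.37 (median 11.89) in GFP- samples. Differences were 1.18, 0.82, 0.75 and 0.75 in odor pools and 1.49, 0.94, 0.76 and 1.03 in vehicle pools. No pool fell under 0.75 and the fractions did not overlap, so that the mean of 0.97 ± 0.11 or 1.95-fold had the lowest adjusted p of the 33 genes (limma, 2.51e-05). Syt1, the fast calcium sensor of release, had positive differences in 8 of 8 pools, 0.22, 0.37, 0.11 and 0.29 in odor and 0.40, 0.30, 0.05 and 0.24 in vehicle. Its mean of 0.25 ± 0.09 missed the threshold (limma adjusted p = 0.0515), and it was called without odor replicate 3 (0.0459) or vehicle replicate 3 (0.0466). GFP+ levels of Syt1 spanned 15.55 to 15.97 (median 15.79) and GFP- levels 15.32 to 15.68 (median 15.61).

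Syt7, a slower, high-affinity sensor, had a difference above 0 in 3 of 8 pools, with -0.21, -0.02, -0.02 and 0.14 in odor and 0.54, 0.27, -0.35 and -0.02 in vehicle pools. Its fractions covered nearly one range, 13.11 to 13.61 (median 13.39) in GFP+ and 13.07 to 13.57 (median 13.36) in GFP- samples. The mean was 0.04 ± 0.11 (95% interval -0.20 to 0.28; limma adjusted p = 0.803). Syt11, whose product does not bind calcium, differed by 0.30, 0.09, 0.05 and 0.23 in odor and 0.38, 0.23, -0.33 and -0.09 in vehicle pools. With GFP+ levels of 15.57 to 15.95 (median 15.81) and GFP- levels of 15.27 to 16.09 (median 15.72), its mean of 0.11 ± 0.10 was not called (limma adjusted p = 0.434). Syt2, another fast sensor, lay under background, at 3.18 to 4.32 (median 3.59) in GFP+ and 2.99 to 3.74 (median 3.58) in GFP- samples.

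SNARE proteins pull vesicle and plasma membrane together, and complexins clamp the assembled complex. Of these 6 genes, 5 were called higher, Cplx1 among them at levels under background, 4.82 to 5.47 (median 5.35) in GFP+ and 4.31 to 5.50 (median 4.87) in GFP- samples. The call of Cplx1 (limma adjusted p = 0.0352) ended without odor replicate 1 or 4 or any one vehicle replicate (adjusted p from 0.0513 to 0.0821). Snap25, the plasma membrane SNARE of neurons, had levels of 16.74 to 17.01 (median 16.82) in GFP+ and 15.99 to 16.63 (median 16.36) in GFP- samples. Differences of 0.28, 0.41, 0.60 and 0.34 in odor and 0.89, 0.64, 0.40 and 0.48 in vehicle pools gave a mean of 0.50 ± 0.09 or 1.42-fold (limma adjusted p = 0.00166). All 8 pools were above 0 and the levels did not overlap.

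Cplx2 differed by 0.66, 0.19, 1.00 and 0.37 in odor and by 1.11, 0.67, 0.60 and 0.07 in vehicle pools. Its GFP+ levels, 11.62 to 11.95 (median 11.79), were far tighter than its GFP- levels, 10.64 to 11.73 (median 11.30). The mean difference was 0.58 ± 0.13 (limma adjusted p = 0.00537), positive in 8 of 8 pools. Vamp2, the vesicle SNARE, split into pools with a clear difference and pools near 0: odor replicates 1 to 4 gave -0.01, 0.02, 0.67 and 0.69 and vehicle replicates 1.10, 0.89, 0.03 and 0.29. GFP+ levels ran from 14.94 to 15.19 (median 15.05) and GFP- levels from 13.84 to 15.08 (median 14.59). Its mean of 0.46 ± 0.14 (limma adjusted p = 0.0291) was not called without odor replicate 3 or 4 or vehicle replicate 1 or 2 (adjusted p from 0.0699 to 0.0809).

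Stx1a, which encodes the partner syntaxin of Snap25, differed by -0.09, 0.23, 0.68 and 0.27 in odor and 0.87, 0.26, 0.64 and 0.34 in vehicle pools. Levels of 9.39 to 10.02 (median 9.66) in GFP+ overlapped those of 8.71 to 9.77 (median 9.26) in GFP- samples. Its mean was 0.40 ± 0.11 (limma adjusted p = 0.0186), and 0.31 without both pools numbered 3, where it was not called (adjusted p = 0.0743). Vamp1, the other vesicle SNARE of the list, had a mean of 0.12 ± 0.15 (limma adjusted p = 0.562), with pools from -0.70 to 0.73.

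Of the vesicular glutamate transporter genes, Slc17a6 lay above background and Slc17a7 under it, so their differences cannot be compared. Slc17a6, the transporter gene of these neurons, lay at 15.01 to 15.78 (median 15.37) in GFP+ and 14.96 to 15.39 (median 15.17) in GFP- samples. Its difference was 0.17, 0.41, 0.33 and 0.39 in odor pools and 0.33, 0.16, -0.18 and 0.10 in vehicle pools, so that only vehicle replicate 3 was below 0. The mean of 0.22 ± 0.09 (95% interval 0.01 to 0.42) did not pass the test over all genes (limma adjusted p = 0.0951). By arm it was 0.33 ± 0.13 in odor pools (adjusted p = 0.107) and 0.10 ± 0.13 in vehicle pools (adjusted p = 0.634). The difference between the arms, 0.23 with a 95% interval of -0.18 to 0.63, was not called either (adjusted p = 1.00).

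Slc17a7, which encodes VGLUT1 of cortical and mitral cell terminals, lay under background in every sample, at 3.02 to 3.94 (median 3.53) in GFP+ and 3.46 to 4.21 (median 3.76) in GFP- samples. It was the gene called lower (limma adjusted p = 0.0273), being lower in 7 of 8 pools, with differences of -0.48, -0.17, -0.73 and -0.45 in odor and 0.07, -0.41, -0.15 and -0.27 in vehicle pools. The call ended without odor replicate 1, 3 or 4 or vehicle replicate 2 or 4 (adjusted p from 0.0568 to 0.0796). No fold is read from levels under background.

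Of the genes of the active zone and of vesicle priming, 2 of 9 were called higher, against 18.3% of all genes. Their median difference of 0.09 was that of Erc2, which lay near background. Rab3a encodes a small GTPase on vesicles that links them to the active zone. Its levels ran from 15.49 to 15.69 (median 15.55) in GFP+ and from 14.64 to 15.51 (median 15.14) in GFP- samples. Differences of 0.32, 0.15, 0.37 and 0.60 in odor and 0.92, 0.44, 0.19 and 0.39 in vehicle pools gave a mean of 0.42 ± 0.10 or 1.34-fold (limma adjusted p = 0.00978). GFP+ was higher in 8 of 8 pools, and the fractions overlapped only narrowly.

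Unc13a encodes Munc13-1, a priming factor without which most glutamate vesicles cannot fuse. Its differences were -0.09, -0.06, 1.11 and 0.15 in odor pools and 0.82, 0.45, 0.33 and 1.09 in vehicle pools. Levels were 7.55 to 8.80 (median 7.94) in GFP+ and 6.44 to 8.11 (median 7.75) in GFP- samples, with wide overlap. The mean was 0.48 ± 0.15 (limma adjusted p = 0.0289), and the call ended without vehicle replicate 1 (0.0631) or 4 (0.0812).

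The paralogue Unc13b was at 0.04 ± 0.11 (limma adjusted p = 0.809). Rab3b, a paralogue of Rab3a, had a difference below 0 in each odor pool, -0.19, -0.32, -0.14 and -0.14, and 0.40, 0.20, -0.14 and -0.09 in vehicle pools. Its levels covered 14.88 to 15.22 (median 14.96) in GFP+ and 14.70 to 15.25 (median 15.07) in GFP- samples, and its mean of -0.05 ± 0.09 was not called (limma adjusted p = 0.700). Rims1 and Rims2 encode scaffolds that recruit calcium channels, and their means were 0.22 ± 0.10 and -0.09 ± 0.13 (limma adjusted p = 0.0986 and 0.620). The giant scaffold genes Bsn and Pclo were at 0.29 ± 0.13 and 0.02 ± 0.24 (limma adjusted p = 0.120 and 0.960), and Pclo ranged from -1.48 in odor replicate 3 to 1.17 in odor replicate 2. Erc2 lay at background level in both fractions. Snap91, whose product AP180 builds clathrin coats for vesicle retrieval, had a mean of 0.20 ± 0.10 (limma adjusted p = 0.145) and was positive in 6 of 8 pools.

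Of the presynaptic receptors, Drd2 was called and Gabbr1 was not. Drd2, the dopamine D2 receptor gene, lay at 13.87 to 14.15 (median 14.07) in GFP+ and 13.30 to 14.07 (median 13.74) in GFP- samples. Its difference was 0.33, 0.02, 0.21 and 0.44 in odor and 0.61, 0.57, 0.01 and 0.30 in vehicle pools. All 8 were above 0, but 2 of them by no more than 0.02, and the mean was 0.31 ± 0.10 or 1.24-fold (limma adjusted p = 0.0365). The call ended without odor replicate 1, 3 or 4 or vehicle replicate 1, 2 or 4 (adjusted p from 0.0514 to 0.0983). Gabbr1, a subunit of the GABA-B receptor, had levels of 15.01 to 15.31 (median 15.14) in GFP+ and 14.76 to 15.23 (median 15.08) in GFP- samples. Its differences of 0.05, -0.00, 0.18 and 0.06 in odor and 0.37, 0.21, 0.08 and -0.10 in vehicle pools gave a mean of 0.10 ± 0.09 (95% interval -0.09 to 0.30; limma adjusted p = 0.393).

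Within each arm, fewer genes passed. In odor pools 4 of 33 were higher, Syn1, Syn2, Sv2b and Syt4, and 1 lower, Slc17a7, against a background of 7.96% of all genes higher and 10.6% lower. In vehicle pools 10 were higher, those 4 with Syn3, Snap25, Stx1a, Cplx2, Rab3a and Unc13a, and 0 lower, against 8.86% higher and 10.8% lower. Median differences were 0.25 in odor and 0.35 in vehicle pools, beside 0.11 over all genes in each arm. Syt4 differed by 0.88 ± 0.15 in odor pools (limma adjusted p = 0.00133) and 1.06 ± 0.15 in vehicle pools (3.23e-04). Syn2 differed by 0.70 ± 0.15 (0.00735) and 0.86 ± 0.15 (0.00175). Syn1 differed by 0.87 ± 0.24 (0.0266) and 1.17 ± 0.24 (0.00474), and Sv2b by 0.57 ± 0.14 (0.0125) and 0.69 ± 0.14 (0.00378).

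These calls within an arm rested on few pools. In odor pools Syn1 lost its call without any one odor replicate (adjusted p from 0.0555 to 0.120), and Sv2b without odor replicate 1 (0.0719) or 2 (0.0566). The count of 5 genes in odor pools fell to 2 without odor replicate 1 and to 3 without odor replicate 2 or 4. In vehicle pools Syn3, Stx1a, Cplx2, Rab3a and Unc13a each lost the call without vehicle replicate 1 or vehicle replicate 2 (adjusted p from 0.0533 to 0.189). Leaving out odor replicate 1, 2 or 4 or vehicle replicate 3 or 4 each ended at least 1 of these 5 calls as well (adjusted p from 0.0503 to 0.176). An odor pool does not enter the mean difference in vehicle pools. Leaving it out changes only the variance shared by both arms and the adjustment. The count of 10 fell to 5 without vehicle replicate 1 or 2 and to 6 without odor replicate 4 or vehicle replicate 4.

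The fractions also differed in their cell makeup. Marker counts below are over both arms and stand against 18.3% of all genes higher and 13.9% lower. Neutrophil markers were lower in GFP+ samples for 9 of 9 genes, with a summed level (log2) of 17.98 to 19.44 in GFP- samples against 8.47 to 10.06 in GFP+ samples, where Mmp8, Camp, Ltf and Cxcr2 were under background. Markers of sustentacular or gland cells were lower for 7 of 10, with sums of 16.33 to 17.09 and 14.56 to 15.45. Krt8 was under background in GFP+ samples, and Muc5b in every group. Trpm5 microvillar cell markers were lower for 10 of 10 (sums of 11.25 to 13.24 and 8.06 to 8.49) and macrophage markers for 8 of 9 (14.07 to 16.10 and 9.65 to 11.10). Of the Trpm5 cell markers, 9 lay under background in odor GFP+ samples and 8 in vehicle GFP+ samples. Lymphocyte markers were lower for 8 of 8, erythroid markers for 4 of 4 and markers of globose basal and dividing cells for 6 of 7, and markers of guanylyl cyclase D neurons for 3 of 7. Of 6 markers of olfactory ensheathing glia, 1 was higher and 1 lower, and 5 were under background in every group. Immature sensory neuron markers were lower for 6 of 12, with sums of 17.02 to 17.34 in GFP- samples against 16.82 to 17.00 in GFP+ samples, where Nhlh1 was under background. The 6 called differences ran from -2.07 for Stmn1 to -4.79 for Nhlh1, a lower bound in size for the latter. Bright genes that were not called, such as Stmn2 and Tubb3, weigh most in the sum. Of the mature sensory neuron markers 4 of 14 were higher in GFP+ samples, Slc24a4, Faim2, Ano2 and Rtp2, and the sum was 20.75 to 21.21 in GFP- samples against 21.23 to 21.27 in GFP+ samples. The median difference of these 14 markers was 0.22. Stoml3 among them was the brightest gene of every one of the 16 arrays, near the top of the range, and Cngb1 lay under background, so differences of both may be compressed. The part of cell makeup in the differences of the release genes was not tested, but they can be read relative to these markers.

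To do so, each array was centred on the mean log2 level of the 14 mature markers, a scaling chosen after the data were seen. Relative to them, 4 of 33 release genes were higher over both arms and 2 lower, against 5.07% of all genes higher and 21.7% lower. Syn1 was higher by 0.78 (limma adjusted p = 0.0033), Syt4 by 0.73 (3.3e-04), Syn2 by 0.54 (0.0043) and Sv2b by 0.39 (0.011). Rab3b, at -0.29 (adjusted p = 0.048), and Slc17a7, which lies under background, were lower. Without Stoml3 and Cngb1 the scaling called 4 genes higher and 2 lower again, with Syn1 at 0.77, Syt4 at 0.71, Syn2 at 0.53 and Sv2b at 0.38. Snap25, Cplx2 and Rab3a were no longer called, at adjusted p of 0.0688, 0.0677 and 0.255, nor were Syn3, Sv2a, Sv2c, Vamp2, Stx1a, Cplx1, Unc13a and Drd2 (0.258 to 0.645). The 33 genes split into 17 above and 16 below 0, with a median of 0.01 beside -0.12 over all genes. The share of called genes that were higher over all genes was 56.8% as deposited and 18.9% under this scaling. In odor pools it was 42.9% and 19.5%, and in vehicle pools 45.1% and 16.9%.

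**Figure D3:**
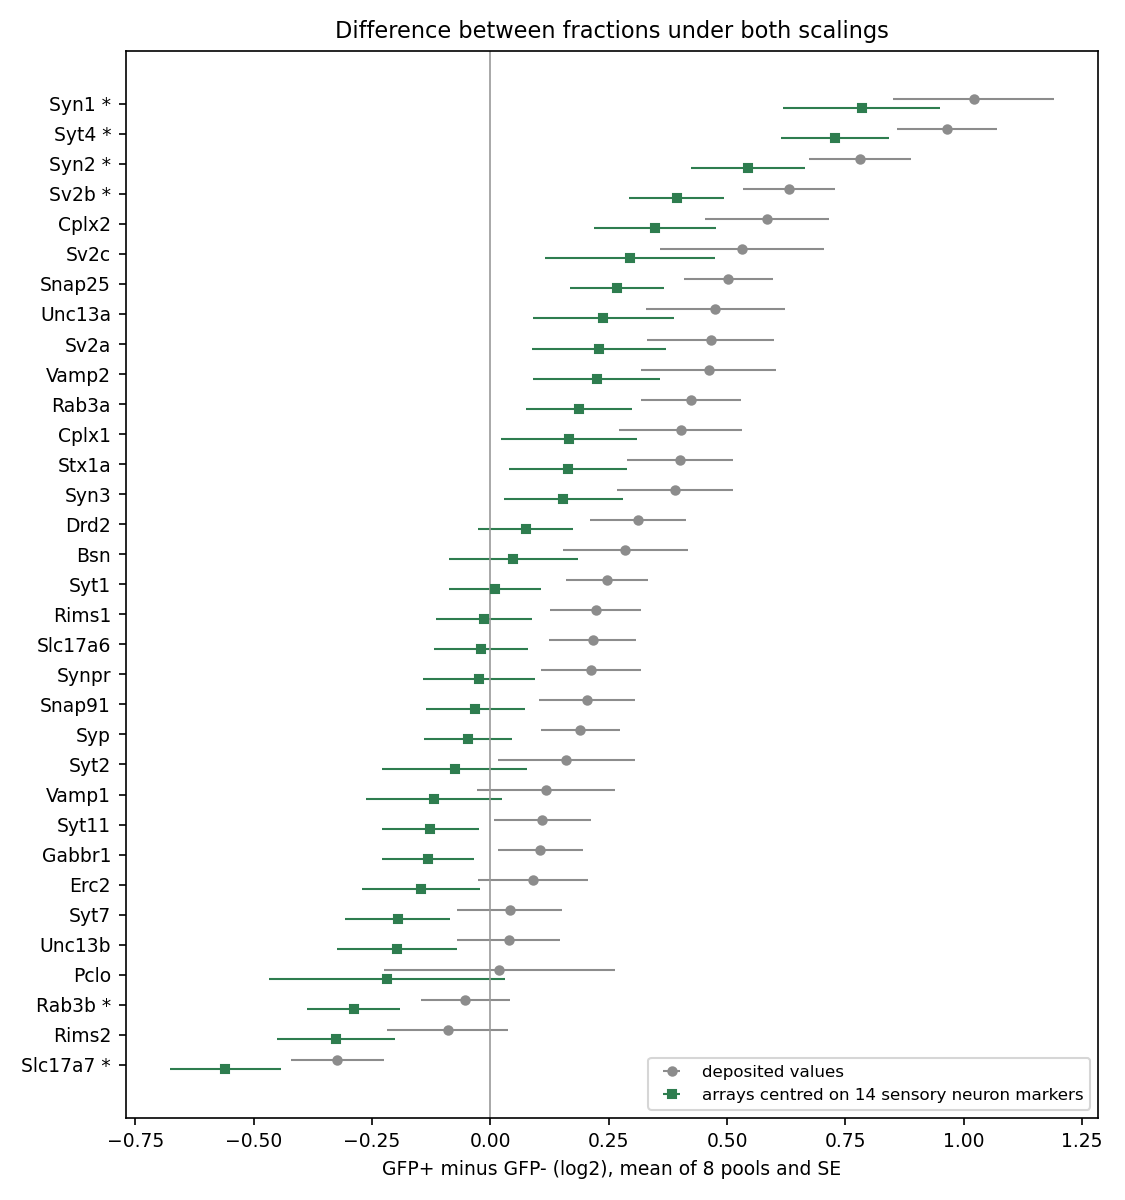
Mean GFP+ minus GFP- log2 difference of the 33 genes over 8 pools with its SE, for the deposited values (grey) and for arrays centred on 14 mature sensory neuron markers (green); * marks genes called under the second scaling. Syn1, Syt4, Syn2 and Sv2b stay right of 0 with a * at 0.78, 0.73, 0.54 and 0.39, while Slc17a6, Syp and Gabbr1 lie at or left of 0.

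Odor exposure itself was compared within each fraction. In GFP+ samples 0 of 33 genes were called, against 0% of all genes higher and 0% lower, and 0 had an unadjusted limma p below 0.05 (1070 of all genes did). Differences, odor minus vehicle, ran among the 28 genes above background from -0.37 for Unc13a (95% interval -0.85 to 0.12) to 0.18 for Slc17a6 (-0.17 to 0.53). The median over the 33 genes was -0.03, and with 1 pool left out it lay between -0.06 and 0.01. It was above 0 without odor replicate 3 or vehicle replicate 2. With odor and vehicle pools of the same number paired by a replicate block, 0 genes were called again, and Unc13a had an unadjusted limma p below 0.05 (1235 of all genes did), with an interval of -0.69 to -0.04. For Syn1 the GFP+ levels were 11.27, 11.45, 11.44 and 11.64 in odor replicates and 11.38, 11.39, 11.07 and 11.41 in vehicle replicates 1 to 4. Odor and vehicle overlapped, and the difference was 0.14 ± 0.14 (95% interval -0.17 to 0.44; limma adjusted p = 0.975). Syt4 differed by 0.16 ± 0.14 (95% interval -0.13 to 0.46; adjusted p = 0.965), and Drd2 by -0.03 ± 0.12 (-0.30 to 0.23; adjusted p = 0.998). For Slc17a6, GFP+ levels were 15.30, 15.57, 15.30 and 15.78 in odor and 15.37, 15.48, 15.01 and 15.36 in vehicle replicates 1 to 4, and these overlapped too.

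In GFP- samples 0 of 33 genes were called, against 0% of all genes higher and 0.00513% lower, and again 0 had an unadjusted limma p below 0.05 (697 of all genes did). The largest difference was 0.44 ± 0.29 for Syn1 (95% interval -0.19 to 1.07). Its GFP- levels were 10.61, 10.77, 10.59 and 10.34 in odor and 9.21, 10.18, 10.71 and 10.46 in vehicle replicates 1 to 4, so the spread among vehicle pools was wider than the difference. The median over the 33 genes was 0.09. It was 0.03 without vehicle replicate 1, 0.04 without odor replicate 3, 0.05 without vehicle replicate 2 and 0.14 without odor replicate 4.

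The difference between fractions was likewise compared between arms. Here 0 of 33 genes were called, against 0% of all genes higher and 0% lower, and 1 gene, Syt2, had an unadjusted limma p below 0.05 at levels under background (654 of all genes did). The sign was positive, larger in odor pools, for 6 of 33, and the median was -0.14 beside 0.01 over all genes. Without vehicle replicate 1 the median was -0.05, and without vehicle replicate 3 it was -0.23. Unc13a had the lowest value, -0.40 ± 0.29 (95% interval -1.04 to 0.25), and Syn1 was at -0.30 ± 0.34 (-1.05 to 0.45). With 4 pools an arm, intervals of this width do not show that the arms were alike.

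**Figure D4:**
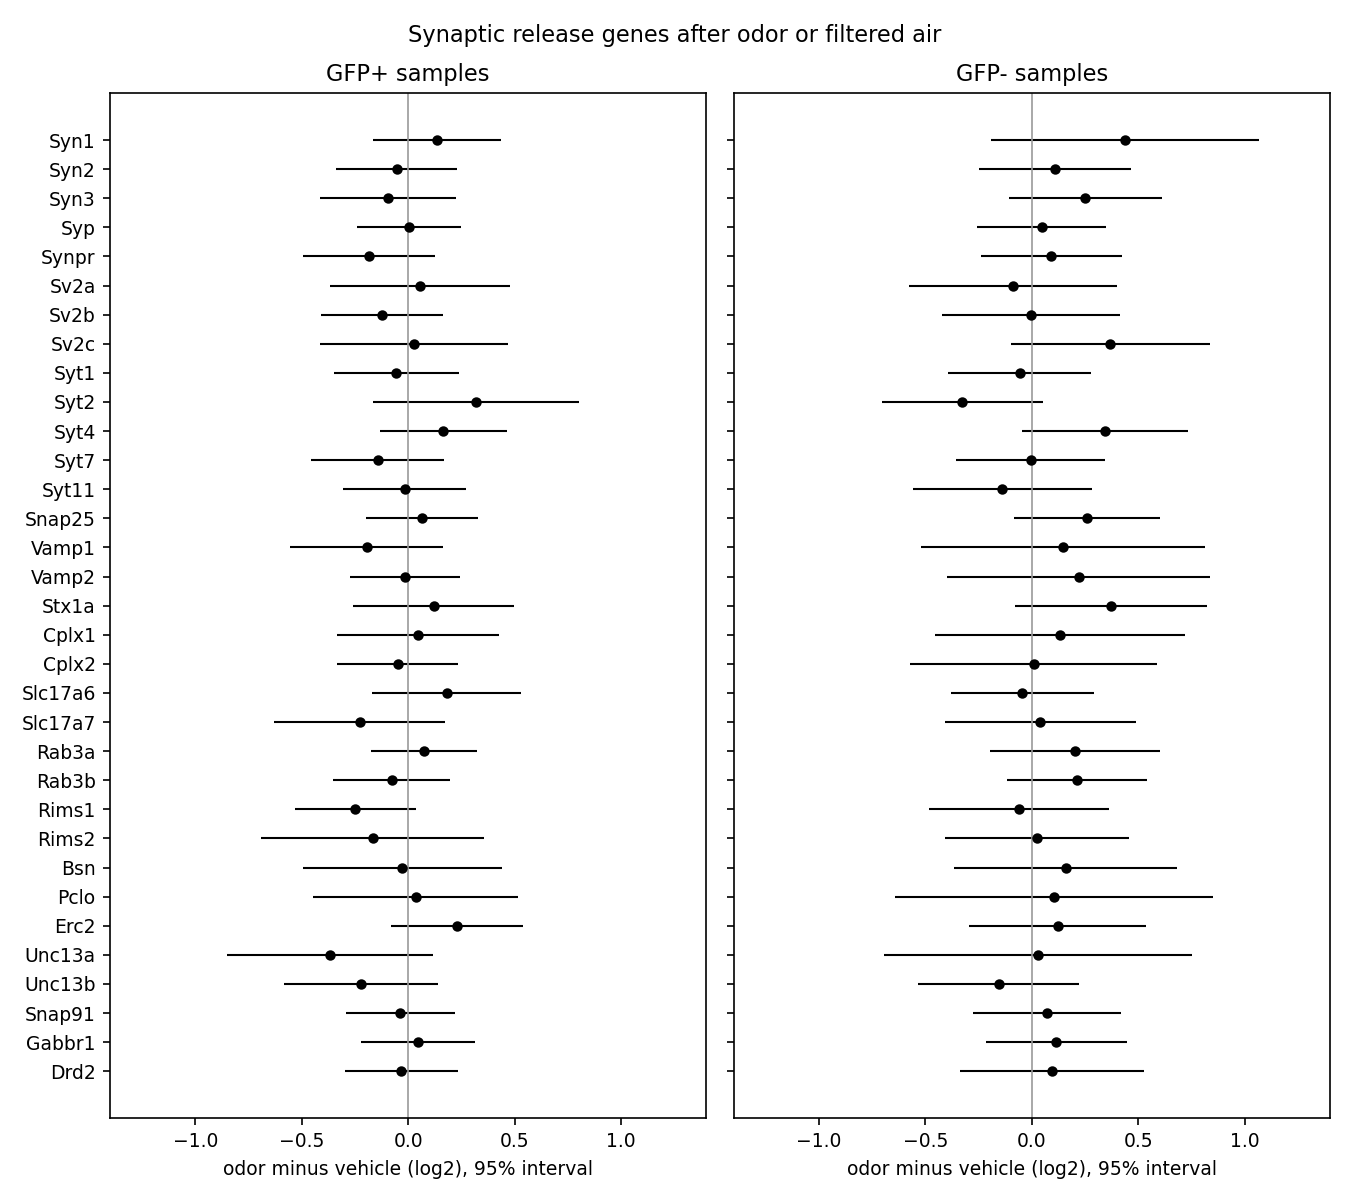
Odor minus vehicle log2 difference of each of the 33 genes with its 95% interval from limma, in 8 GFP+ samples (left) and 8 GFP- samples (right). Without a replicate block every interval crosses 0; the intervals of Syn1 run from -0.17 to 0.44 in GFP+ and from -0.19 to 1.07 in GFP- samples.

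Other genes of vesicle release were taken from 5 lists holding 128 symbols, of which 117 were measured. Over both arms 17 of 117 were higher and 11 lower in GFP+ samples, against 18.3% of all genes higher and 13.9% lower, and the counts of each list below stand against the same shares. In either fraction 0 of them were called between odor and vehicle. Among 32 SNARE partners and calcium sensors 6 were higher and 2 lower, and Snap23, a relative of Snap25 found in many cell types, was lower, at -1.93 ± 0.15. Among 22 active zone and priming genes 1 was higher and 2 lower, with Cadps2, a dense-core vesicle priming factor, at -2.70 ± 0.16. As Cadps2 lay under background in 4 of 8 GFP+ samples, this size is a lower bound. Among 22 vesicle and transmitter genes 4 were higher and 3 lower, and 1 of those lower, Gad2, lay under background in every group. The largest differences there were those of Syngr2, a synaptogyrin of non-neuronal cells (-2.72 ± 0.12), and Slc38a1, a glutamine transporter (-2.03 ± 0.17). Syngr1, the neuronal synaptogyrin, singled out after its value was seen, was higher by 1.33 ± 0.10. Slc17a8, Slc32a1, Gad1 and Th, genes of other vesicular transporters and of GABA and dopamine synthesis, lay under background in every group.

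Among 24 genes of endocytosis and recycling 4 were higher and 1 lower. The largest differences were in Synj1, a phosphatase that uncoats vesicles (0.54 ± 0.14), and Dnm1, the neuronal dynamin (0.48 ± 0.10). Among 17 genes of presynaptic inhibition 2 were higher and 3 lower, led by the G protein subunits Gnai2 (-4.83 ± 0.12) and Gnai3 (-1.10 ± 0.11). Gabbr2, the partner subunit of Gabbr1, was at 0.24 ± 0.10 and was not called (limma adjusted p = 0.0894).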

How the data were processed

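The deposited log2 values of 16 Clariom S arrays were used as given. Per the submitters' processing notes they were made with Affymetrix Expression Console; no source used here gives its version, normalization or summarization. The base 2 was inferred, since the values span too few units for a linear scale. Of 28846 probes, 19572 had 1 gene symbol, 0 several and 9274 none in the platform annotation. For 55 genes with several probes, none of them in the set, the brightest was kept, which left 19505. Array background was the median of 23 antigenomic probes. The number of arrays limits the precision.

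Members and lists were chosen with earlier results of these data known. Values are printed for each gene called in any comparison, for the glutamate transporters and receptors, and for families with a called member; of other release genes, at most the 2 largest called differences of a list are named by rule, and Syngr1, Gabbr2 and the transmitter genes under background were added after their values were seen. limma 3.58.1 in R 4.3.3 was fitted to the 8 within-pool differences and, for odor minus vehicle, to the 8 samples of each fraction. Each SE uses 1 variance per gene shared by both arms. P-values were two-sided, adjusted by Benjamini-Hochberg over all 19505 genes (threshold 0.05), and measure the spread between pools of 3 mice.

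Pools come from the codes in the sample titles. The titles number a pair of vehicle pools 3; the later was numbered 4 here. GFP+ and GFP- samples of a pool deviated together (correlations 0.109 to 0.249 across genes). Odor and vehicle pools share replicate numbers. Their deviations correlated at 0.114 to 0.242 in GFP+ and at 0.0664 to 0.332 in GFP- samples. Within-pool differences of the same number correlated at 0.0974 to 0.305. The pools numbered 3 of both arms also shared low levels of Y-linked genes. Correlations between pools of unlike number were not computed, so whether the numbers mark pairs was not settled. The main odor minus vehicle fits therefore had no replicate block, and fits with a block were run as an alternative. The alternatives were median centring, quantile normalization, a filter on dim genes, probe means, trended and robust moderation, other pairings, leaving out each pool, and, chosen after seeing the data, centring on 14 or 12 sensory neuron markers and leaving out both pools numbered 3.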

Additional observations from a re-analysis of the deposited data

Results flagged for a closer look

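In groups of 4 samples, 7 values of the release genes stood far from the other 3 by Dixon's test, of 174 groups looked at; chance alone gives about 1 in 20. Among the levels, Syn1 was at 11.07 in the GFP+ sample of vehicle replicate 3, with the others at 11.38 to 11.41. Sv2a was at 11.28 in the GFP+ sample of odor replicate 2, with the others at 10.66 to 10.73. Rab3b was at 14.70 in the GFP- sample of vehicle replicate 1, with the others at 15.02 to 15.07. Among the within-pool differences, odor replicate 3 stood low for Syn2, at 0.24 against 0.81 to 0.91, and for Sv2c, at -0.48 against 0.55 to 0.70. Syt4 was at 1.18 in odor replicate 1, against 0.75 to 0.82 in the other odor pools. Erc2, near background, was at -0.17 in vehicle replicate 3, against 0.08 to 0.13.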

How the results depend on the processing

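Of 33 release genes, 16 were called between fractions over both arms, 5 in odor pools and 10 in vehicle pools. With each array centred on its median these counts were 30, 26 and 28, all higher, but the median of all genes was then 0.46 (0.46 and 0.45 by arm), and 88% of all called genes were higher (86.5% in each arm); quantile normalization gave 64.9%, with 56.6% in odor and 58.4% in vehicle pools. Centring on the 14 mature sensory neuron markers, or on 12 of them without Stoml3 and Cngb1, gave 6, 2 and 3 each time. Leaving out 1 pool gave 9 to 16, 2 to 7 and 5 to 11. Without a replicate block for the fractions of a pool, the counts were 13, 5 and 8. Between odor and vehicle, 0 genes were called under every alternative run, the replicate block by number included. Syn1, Syn2, Sv2b and Syt4 kept their call over both arms in all 17 alternatives. Probe means, among these 17, could not change their differences, since none of the 33 genes has several probes. Slc17a7, under background, turned to 0.0201 with median centring (limma adjusted p = 0.858). Under median centring Slc17a6 and Gabbr1 were called higher, at 0.56 and 0.45. The causes were not tested. Levels near array background limit what can be said of Synpr, Syt2, Cplx1, Slc17a7 and Erc2.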
